A study of Mus musculus with 6 samples.

Results

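The suppressors of cytokine signaling (SOCS) are a family of 8 mouse genes, Cish and Socs1 to Socs7, and they were read here in the lungs of mice with mutant EGFR-driven lung cancer fed a high-fat or a regular diet. All 24 probe sets that the platform's annotation ties to exactly 1 of the 8 genes were kept, among 45037 probe sets in the comparison, and a gene's lead probe set was its brightest by mean log2 value over the 6 arrays. The family was chosen on the LC-HFD minus LC-RD difference of Socs2, whose probe sets were already known to disagree, so the values of Socs2 are given as a description without a test.

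Mice of both groups carried the double transgene CC10-rtTA/Tet-O-EGFR L858R, in which the CC10 promoter drives the doxycycline-dependent activator in airway epithelium and doxycycline (Dox) turns on human mutant EGFR. They were male, of a line backcrossed to C57BL/6, and 6 weeks old at the start by the study's account of its design, while its methods give 6 to 8 weeks. The LC-HFD group, labelled HFD+Dox, ate a high-fat diet with 60% of its energy from fat, and the LC-RD group, labelled RD+Dox, ate a regular diet. Both groups received Dox, with 625 ppm mixed into the food and 2 mg/ml dissolved in 1% sucrose water. For LC-HFD the labels give the diet alone up to 8 weeks and then Dox for 7 weeks, whereas the paper's account of the design gives 2 weeks of diet followed by 8 weeks with Dox. Each group had 3 mice, with 1 Affymetrix mouse genome array of whole lung RNA per mouse and no array of mice without induced EGFR among those used here. In whole lung, fewer cells of a type and less RNA per cell cannot be told apart.

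SOCS proteins are brakes on cytokine and growth factor signaling. A cytokine or hormone such as interleukin 6 or growth hormone binds its receptor, Janus kinases (JAK) phosphorylate the receptor and the STAT transcription factors, and the STAT factors enter the nucleus and switch on genes that include Cish, Socs1, Socs2 and Socs3. The SOCS proteins then bind the phosphorylated receptor or kinase through an SH2 domain and recruit a ubiquitin ligase through their SOCS box, which ends the signal, and some members act in the same way on receptor tyrosine kinases such as EGFR.

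Of the 4 members with a promoter window, Cish and Socs3 are shown because their windows hold the letters TTCNNNGAA, given in capitals. This STAT-type motif reads the same on both strands, so a match on one strand is a match on the other. The windows run from 250 bases before to 50 after an annotated start and are RefSeq sequences of GRCm38.p6, written 5′ to 3′ along the gene, at chr9:107296409-107296708 on the plus strand for Cish and chr11:117969317-117969616 on the minus strand for Socs3. The Socs3 window lies inside the outermost span that RefSeq gives the gene.
Cish: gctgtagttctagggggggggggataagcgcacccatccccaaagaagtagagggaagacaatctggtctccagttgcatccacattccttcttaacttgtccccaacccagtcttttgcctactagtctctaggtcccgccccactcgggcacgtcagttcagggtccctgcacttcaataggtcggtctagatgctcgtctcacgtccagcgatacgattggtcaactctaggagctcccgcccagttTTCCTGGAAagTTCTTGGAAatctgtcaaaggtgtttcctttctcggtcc
Socs3: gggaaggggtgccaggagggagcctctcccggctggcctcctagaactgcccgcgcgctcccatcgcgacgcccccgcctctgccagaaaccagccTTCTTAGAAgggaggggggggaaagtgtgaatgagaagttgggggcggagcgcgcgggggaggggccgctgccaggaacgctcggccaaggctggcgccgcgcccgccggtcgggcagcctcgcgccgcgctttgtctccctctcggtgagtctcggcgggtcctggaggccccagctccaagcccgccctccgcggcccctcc
The Cish window held 2 matches, which begin at base 1 and base 12 counted from the start, and the Socs3 window held 1 match, at base -154. At least 1 match was present in 8.3% of the 32851 promoter windows in the table and at least 2 in 0.457%. The window of Socs1 and that of Socs4 held 0 matches to these letters. A match is a description of the letters and not of a bound site.

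Setting Socs2 aside, 4 of the 18 SOCS family probe sets passed the test as lower in LC-HFD, 0 passed as higher and 14 did not pass. Passing means an adjusted p under 0.05 with limma over all probe sets. The 4 were all 3 probe sets of Socs3 and 1 of the 3 of Socs6. Among all 45037 probe sets 25.0% passed, 13.6% as lower and 11.3% as higher, so the 22.2% of these 18 is near the share of the whole array. At an unadjusted p under 0.05 there were 8 of the 18, beside 39.1% of all probe sets. The count of 4 fell to 1 without LC-HFD replicate 3, to 0 without LC-RD replicate 1 or LC-RD replicate 2 and to 2 without LC-RD replicate 3. In 3 alternatives, median centering, the median over a gene's probe sets and leaving out LC-HFD replicate 2, Socs1 passed as higher. Of the 6 Socs2 probe sets 1 lay past the 2-fold line and under the threshold, where 1.73% of all probe sets do, and nothing is read from it because Socs2 chose the family.

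Without Socs2, LC-HFD minus LC-RD was below 0 for 14 of 18 probe sets, with a median of -0.21 on the log2 scale. Over the whole array 44.1% were below 0 and the median was 0.04. With Socs2, which chose the family, it was 18 of 24 with a median of -0.18, given as a description only. Brighter probe sets of the array were themselves lower in LC-HFD. Where the mean log2 value was 6 or more, 59.2% of all probe sets were below 0 with a median of -0.06, 36.2% passed and 22.7% passed as lower, beside 12 of 15 family probe sets below 0 with a median of -0.22 and 4 of 15, or 26.7%, passing as lower. Those 15 include 4 probe sets of Socs2, so their direction is a description only. By lead probe set, 6 of the 8 genes were below 0, beside 47.35% of all genes. The Socs2 lead, at 0.00495, was not among the 6. The lead of 1 gene, Socs3, passed as lower, against 16.2% of all 18193 genes passing as lower and 11.1% as higher. Without Socs2, the 3 LC-HFD values and the 3 LC-RD values did not overlap for 9 of 18 probe sets, 8 lower and 1 higher. Over the whole array this held for 43.8% of probe sets. The plot of all 24 differences shows each with its interval.

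**Figure D1:**
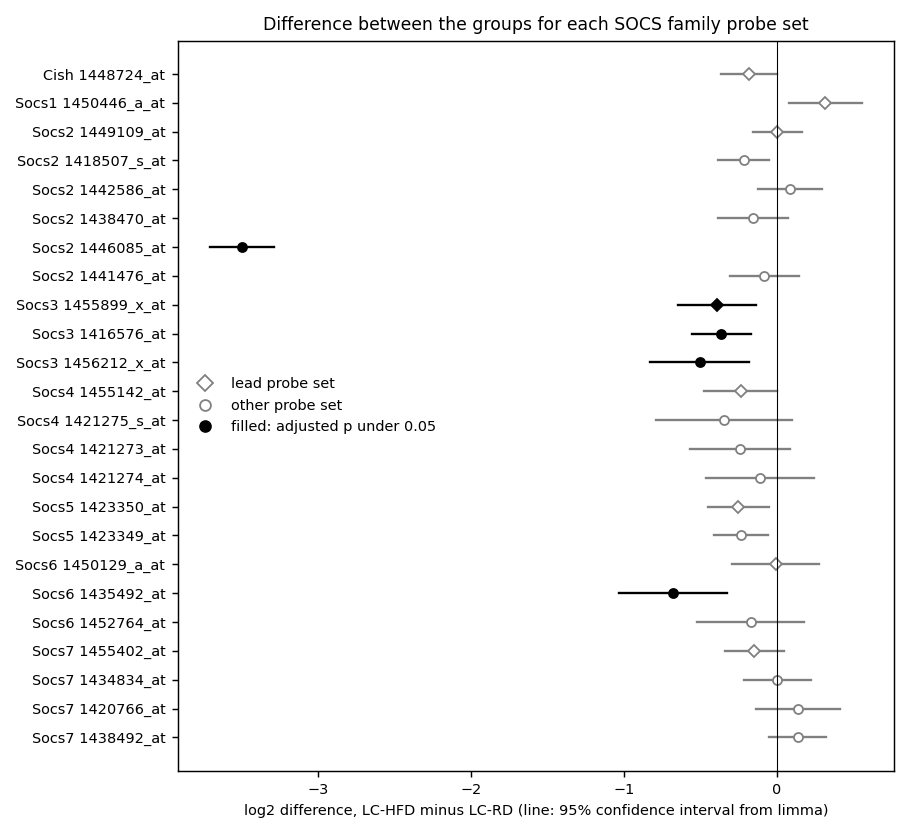
Log2 difference, LC-HFD minus LC-RD, of each of the 24 SOCS family probe sets (x axis), with its 95% confidence interval from limma. Diamonds are lead probe sets, filled marks have an adjusted p under 0.05 (for Socs2 this is a description only), and 18 of the 24 lie below 0, with 1 Socs2 probe set at -3.50 far from the rest.

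Socs2, at chr10:95383903-95417321 in GRCm38.p6, is the brake on growth hormone receptor signaling, and mice without it grow large. Its lead probe set, 1449109_at, read 10.82, 10.87 and 10.83 in LC-HFD and 10.82, 10.81 and 10.87 in LC-RD. The groups overlapped fully, with a difference of 0.00495 and a 95% confidence interval of -0.15 to 0.16. The next brightest, 1418507_s_at, read 10.15, 10.11 and 10.12 in LC-HFD and 10.27, 10.36 and 10.39 in LC-RD. Here every LC-HFD array lay below every LC-RD array, by a mean of 0.22 (difference -0.22, interval -0.38 to -0.05). This probe set did not pass, and 43.8% of all probe sets likewise had groups without overlap.

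One Socs2 probe set stood apart from the others. Probe set 1446085_at read 3.75, 3.63 and 3.48 in LC-HFD and 7.14, 7.07 and 7.13 in LC-RD. All 3 LC-HFD arrays lay far below all 3 LC-RD arrays, with means of 3.62 ± 0.14 and 7.11 ± 0.04 (SD, n = 3). Its difference of -3.50 (SE 0.09) has rank 3 from the lowest of the 45037 probe sets, a description only because Socs2 chose the family. The LC-HFD values lie under 4, below the array medians, so the size of the gap is not exact. The other 3 Socs2 probe sets, 1442586_at, 1438470_at and 1441476_at, had differences of 0.09, -0.15 and -0.08, and the groups overlapped in each.

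The Socs2 probe sets therefore disagreed in size by a wide margin. From lowest to highest the 6 differences spanned 3.58, and the 5 without 1446085_at spanned 0.303. Among 9010 genes with at least 2 probe sets the median span was 0.327, the 95th percentile was 1.05 and Socs2 had rank 3 from the widest. Among the 856 genes with at least 5 probe sets the median was 0.662 and Socs2 again had rank 3. These ranks are a description only, because Socs2 was chosen with the disagreement of its probe sets known. The platform's annotation lists a RefSeq mRNA for 1449109_at and 1418507_s_at, and another GenBank record for the other 4, including 1446085_at. Where on the gene each probe set lies was not analysed here.

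**Figure D2:**
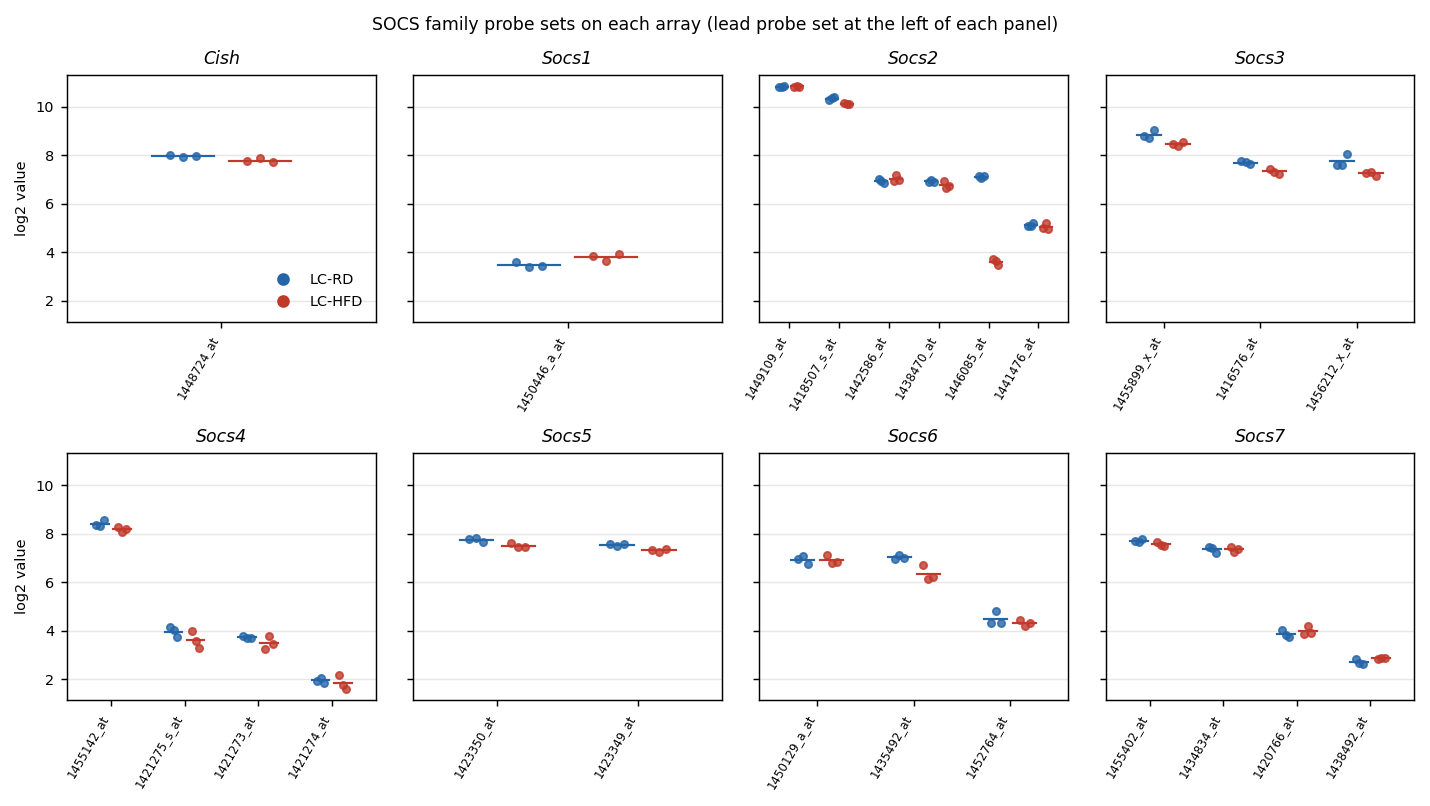
Log2 value (y axis) of each SOCS family probe set on each of the 6 arrays, 1 panel per gene with the lead probe set at the left. Points are single mice, short lines are group means, blue is LC-RD and red is LC-HFD. Socs2 1446085_at shows LC-HFD near 3.62 and LC-RD near 7.11, while within each other Socs2 probe set the groups lie close together.

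**Figure D3:**
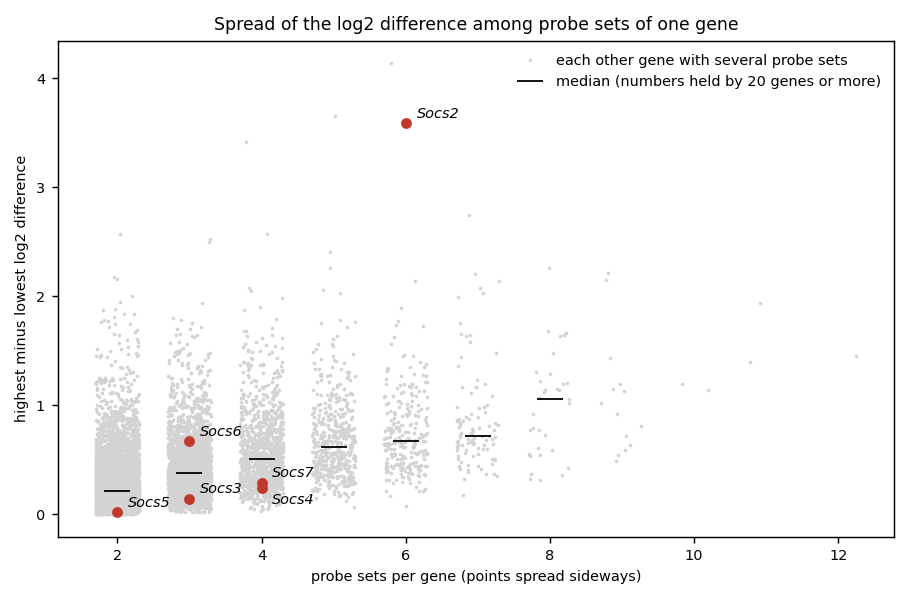
Highest minus lowest log2 difference among the probe sets of a gene (y axis) against its number of probe sets (x axis, spread sideways), with black bars for medians. Of the SOCS family genes in red, Socs2 lies at 3.58 and the other 5 with several probe sets lie between 0.0191 and 0.671.

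The genes whose lead probe sets followed the Socs2 lead most closely were Rnf181, Zswim6, Rassf7, Polr2m and Mgat2. After each was centered on its own mean, they differed from it by a mean of 0.00633 to 0.0124 log2 per array over the 6 arrays, among 9084 candidate genes. The search picks genes that, like the Socs2 lead, differ little between the groups.

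Cish, at chr9:107296659-107302784, encodes CIS, the STAT5-induced inhibitor first known from erythropoietin and growth hormone signaling. Its 1 probe set, 1448724_at, read 7.76, 7.89 and 7.71 in LC-HFD and 8.00, 7.93 and 7.97 in LC-RD. The LC-HFD arrays were all below the LC-RD arrays, although the closest values lay near each other. The difference was -0.18 (SE 0.08, 95% confidence interval -0.36 to -0.000267) and did not pass with limma (adjusted p = 0.127). This gene carries the promoter with both motif matches printed above.

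Socs1, the inhibitor that binds JAK kinases directly and limits interferon signaling, was the 1 member with all LC-HFD arrays above all LC-RD arrays. Probe set 1450446_a_at read 3.83, 3.63 and 3.93 in LC-HFD and 3.58, 3.41 and 3.44 in LC-RD. These are low values, under the level of 4 at which the stricter filters begin. The difference of 0.32 (SE 0.10, interval 0.08 to 0.56) did not pass with limma (adjusted p = 0.0587). It passed as higher with median centering (adjusted p = 0.0491), in the fit of medians over each gene's probe sets (adjusted p = 0.0452) and without LC-HFD replicate 2 (adjusted p = 0.0290).

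Socs3, at chr11:117966079-117970336, inhibits JAK kinases bound to the gp130 and leptin receptors and is the main brake on interleukin 6 and STAT3. All 3 of its probe sets fell. The lead, 1455899_x_at, read 8.49, 8.37 and 8.53 in LC-HFD and 8.79, 8.71 and 9.06 in LC-RD. No LC-HFD array reached an LC-RD array, and the difference was -0.39 (SE 0.11, interval -0.64 to -0.13, adjusted p = 0.0384 with limma). Probe set 1416576_at, the one listed with the RefSeq mRNA, read 7.44, 7.32 and 7.24 in LC-HFD and 7.75, 7.72 and 7.63 in LC-RD. Its difference was -0.36 (SE 0.08, adjusted p = 0.0192 with limma), again without overlap. The last, 1456212_x_at, read 7.29, 7.31 and 7.17 in LC-HFD and 7.61, 7.60 and 8.07 in LC-RD, a difference of -0.50 (SE 0.14, adjusted p = 0.0349 with limma). LC-RD replicate 3 was the highest array for both probe sets whose names end in x_at, a suffix for probes that can match other sequences.

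The Socs3 differences spanned 0.142, a narrow range next to that of Socs2. Their direction was the same in every alternative, but the calls were not. The lead lost its call in 11 of 16 alternatives, among them quantile normalization, the methods' t-test and leaving out any 1 of the 6 arrays (difference -0.46 to -0.29, adjusted p 0.0516 to 0.0946 with limma), and all 3 probe sets lost theirs with the 3′ minus 5′ covariate described at the end. Among arrays left out, 1416576_at lost its call only without LC-RD replicate 1 or LC-RD replicate 2, with a highest adjusted p of 0.0821. For 1456212_x_at each array but LC-RD replicate 3 took the call away (adjusted p 0.0425 to 0.0890), and without that array its difference was -0.35.

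Socs4 and Socs5 are the members known to bind EGFR and to speed its degradation. The Socs4 lead, 1455142_at, read 8.27, 8.06 and 8.19 in LC-HFD and 8.34, 8.31 and 8.57 in LC-RD. The groups did not overlap, and the difference of -0.24 (interval -0.47 to 0.000267) did not pass with limma (adjusted p = 0.128). The other 3 Socs4 probe sets had means under 4 and overlapping groups, with differences from -0.35 to -0.11. For Socs5 the lead, 1423350_at, read 7.60, 7.46 and 7.43 in LC-HFD and 7.77, 7.82 and 7.65 in LC-RD. Its second probe set, 1423349_at, read 7.34, 7.24 and 7.35 in LC-HFD and 7.58, 7.47 and 7.57 in LC-RD. Both showed all LC-HFD arrays below all LC-RD arrays and nearly the same difference, -0.25 (interval -0.45 to -0.05, adjusted p = 0.0693 with limma) and -0.23 (adjusted p = 0.0618), neither passing.

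Socs6, which binds receptor tyrosine kinases such as KIT, had probe sets that differed in their result. The lead, 1450129_a_at, read 7.11, 6.80 and 6.84 in LC-HFD and 6.96, 7.06 and 6.75 in LC-RD. The groups overlapped, with a difference of -0.01 (interval -0.29 to 0.28). Probe set 1435492_at read 6.70, 6.13 and 6.21 in LC-HFD and 6.97, 7.11 and 7.00 in LC-RD. Its LC-HFD arrays were all below the LC-RD arrays and it fell by 0.68 (difference -0.68, SE 0.15, adjusted p = 0.0176 with limma), a 1.6-fold lower signal. The call was lost without LC-HFD replicate 3 or without any 1 of the LC-RD arrays (highest adjusted p 0.0682). The difference between these Socs6 probe sets was not tested. The remaining Socs6 probe set, 1452764_at, had a difference of -0.17 (adjusted p = 0.425).

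Socs7, which has been tied to insulin receptor substrate proteins, had 4 probe sets and 0 that passed. The lead, 1455402_at, read 7.67, 7.52 and 7.47 in LC-HFD and 7.70, 7.64 and 7.76 in LC-RD. Its groups overlapped, and the difference of -0.15 (interval -0.34 to 0.05) did not pass with limma (adjusted p = 0.233). The other 3, with differences of 0.00, 0.14 and 0.14, also did not pass.

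Around the family, 126 genes of the JAK-STAT pathway were listed in 8 groups, and 115 had a probe set of their own. By lead probe set, 18 of these passed as lower, 10 as higher and 87 not at all, so that 24.3% passed and the median difference was 0.04. Over all genes 27.3% passed, 16.2% as lower and 11.1% as higher, and the median was 0.02. The count of 28 went to 16 without LC-RD replicate 1 and to 15 without LC-RD replicate 2. Of the 20 passing genes named in the following paragraphs, 12 kept their call whichever 1 array was left out. The exceptions were Jak2, Stat3, Lepr, Ghr, Clcf1, Rnf7, Pias4 and Bcl2l1.

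**Figure D4:**
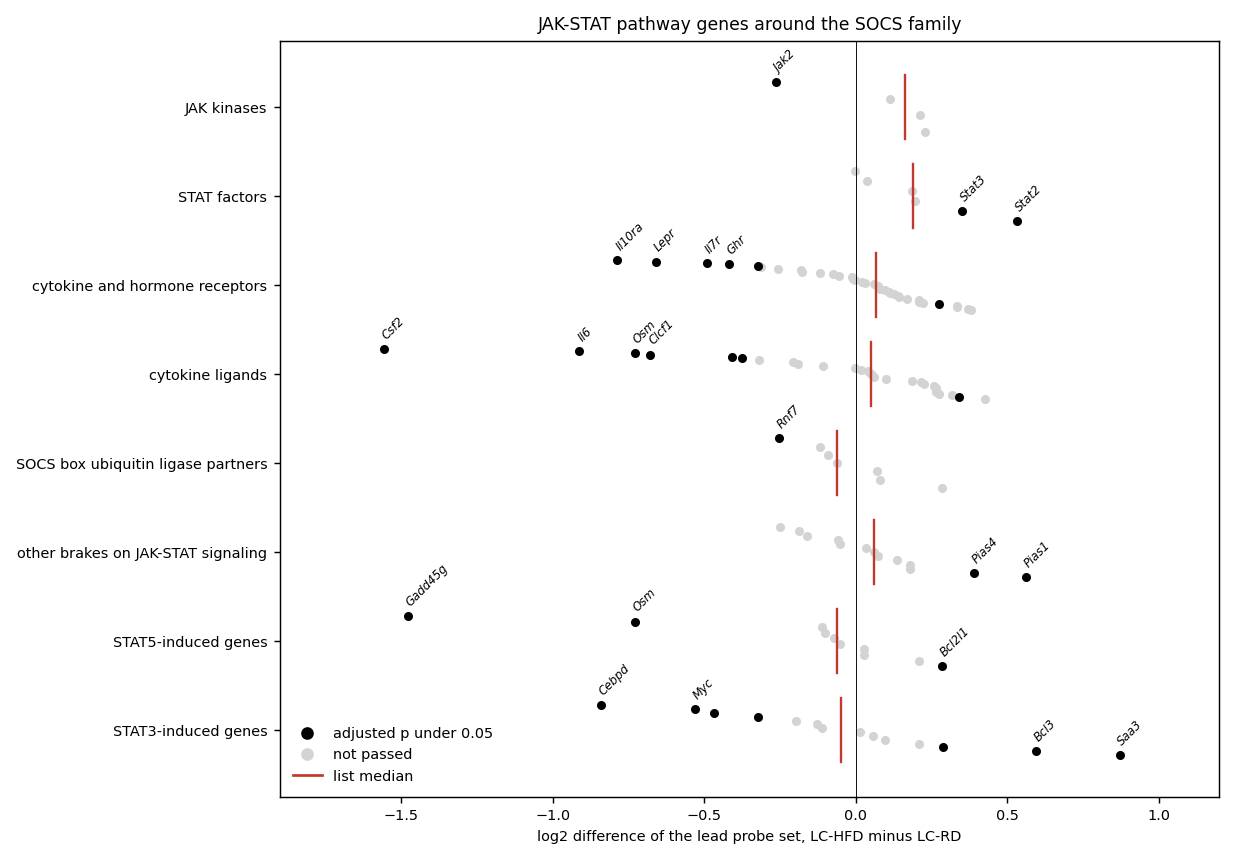
Log2 difference of the lead probe set, LC-HFD minus LC-RD (x axis), of the 115 measured JAK-STAT pathway genes by list (y axis), with named genes labelled. Black points have an adjusted p under 0.05 and red lines are list medians, which lie between -0.06 and 0.19.

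Among the ligands that start the signal, 6 of 28 measured members passed as lower and 1 as higher, leaving 21 (median 0.05). Csf2, the gene of the colony-stimulating factor GM-CSF, fell from 6.46 ± 0.12 in LC-RD to 4.90 ± 0.07 in LC-HFD (SD, n = 3), a difference of -1.56 with an adjusted p of 0.000175 by limma. Il6, a main inducer of Socs3, was 5.11 ± 0.28 in LC-RD and 4.20 ± 0.12 in LC-HFD, a difference of -0.91 (adjusted p = 0.00539). The LC-HFD values of Il6 lie below the array medians, so the size of its gap is not exact. Osm, oncostatin M of the same gp130 group, had a difference of -0.73 (adjusted p = 0.00327), and Clcf1, another gp130 ligand, had -0.68 (adjusted p = 0.0213), although a second Clcf1 probe set stood at 0.36. Lep, the hormone leptin, did not pass, with low values of 2.78 in LC-HFD and 2.74 in LC-RD.

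Of 36 measured receptors, 5 passed as lower and 1 as higher, leaving 30 (median 0.07). Ghr, the growth hormone receptor on which Socs2 acts, fell from 8.35 ± 0.04 to 7.93 ± 0.12, a difference of -0.42 (adjusted p = 0.0131 with limma), and 2 of its 3 probe sets passed. The leptin receptor Lepr read 7.77 ± 0.02 in LC-RD and 7.11 ± 0.39 in LC-HFD, a difference of -0.66 (adjusted p = 0.0350), with its 4 probe sets ranging from -0.66 to 0.28. Il10ra and Il7r, receptor chains of immune cells, had differences of -0.79 (adjusted p = 0.0101) and -0.49 (adjusted p = 0.00877). Of the 3 Il10ra probe sets, which ranged from -0.79 to 0.01, 1 passed. The LC-HFD values of the Il10ra lead lie below the array medians. Of the 2 for Il7r, at -0.49 and -0.30, 1 passed. The shared gp130 chain Il6st had 0.07 and did not pass.

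The kinases and factors that SOCS proteins hold in check went different ways. Jak2, the kinase of the growth hormone receptor, was 1 lower gene of 4 JAK kinases, with 8.31 ± 0.09 in LC-HFD against 8.57 ± 0.02 in LC-RD and a difference of -0.26 (adjusted p = 0.0425 with limma). Of 6 measured STAT factors 2 were higher. Stat3, the factor downstream of interleukin 6, rose from 9.66 ± 0.05 to 10.01 ± 0.03 (difference 0.35, adjusted p = 0.0119), and 3 of its 4 probe sets passed. Stat2, of the interferon response, had a difference of 0.53 (adjusted p = 0.00853). Stat5a and Stat5b, the factors of growth hormone signaling, had 0.04 and 0.00 and did not pass.

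The SOCS box binds an elongin and Cul5 ubiquitin ligase. By lead probe set Rnf7, the RING protein of the Cul5 ubiquitin ligase, had a difference of -0.25 (adjusted p = 0.0399 with limma). The leads of the other 6 of 7 partners did not pass. Of the 2 Rnf7 probe sets 1 passed. Other probe sets passed for the elongin gene Eloc, 3 of 4 with differences from -0.80 to -0.09 over the 4. For Ube2f 1 of 6 passed, with differences from -0.19 to 0.89 over the 6. Among 13 other brakes, which include phosphatases and PIAS proteins, 2 rose by lead probe set. These were Pias1 with 0.56 (adjusted p = 0.00229) and Pias4 with 0.39 (adjusted p = 0.0144), both of which modify STAT factors. The Pias1 probe sets ran from -0.54 to 0.95, and their median per array gave -0.37, so the direction of Pias1 depends on which probe set is read. Some brakes whose lead did not pass had other probe sets that did. Among them were Ptprc (1 of 2 probe sets, differences from -1.39 to -0.16) and Ptpn2 (2 of 4, from -0.82 to 0.14). Cblb (1 of 3, from -0.56 to 0.17) and Pias2 (1 of 3, from -0.37 to -0.06) were others.

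Genes that STAT factors are known to induce were mixed. Of 10 STAT5-induced genes, 2 were lower and 1 was higher. Gadd45g, a stress and growth arrest gene, fell from 7.99 to 6.51, a difference of -1.48 (adjusted p = 0.000126 with limma), Osm stands in this list too, and the survival gene Bcl2l1 had 0.28 (adjusted p = 0.0319). Of 14 STAT3-induced genes, 4 passed as lower and 3 as higher, leaving 7 (median -0.05). The transcription factor genes Cebpd and Myc had differences of -0.84 (adjusted p = 0.000861) and -0.53 (adjusted p = 0.00871), while Saa3, an acute phase gene, and Bcl3, an NF-kB cofactor, had 0.87 (adjusted p = 0.00119) and 0.59 (adjusted p = 0.00286).

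The arrays of the groups also differed in their controls, so that the diet cannot be told apart from the handling of the arrays. The added hybridization controls averaged 11.5 in LC-HFD and 10.0 in LC-RD, the 18S rRNA probe sets 7.61 and 12.5, and the poly-A controls 6.52 and 6.95, while the median log2 value of every array lay between 4.79 and 4.84. Control genes give a sign of RNA length by their 3′ minus 5′ signal, which was 1.584 to 1.696 in LC-HFD and 1.703 to 1.761 in LC-RD, without overlap. With it as a covariate, 0 of the 18 family probe sets other than those of Socs2 passed, and 7.9% of all probe sets did. Because this signal itself separates the groups, the covariate also takes up part of the group difference, whatever its source. A call lost with it therefore cannot decide whether RNA length has a part. Lung markers were present, with the alveolar type II marker Sftpc at 13.81 on every array, too even to show a difference. In that list 1 of 4 passed, Abca3, with 0.30 (summed linear signal 31600 to 32230 in LC-HFD and 31160 to 32080 in LC-RD). Of the neutrophil markers, S100a8 and S100a9 fell by 0.85 and 0.92 and the summed linear signal of the 4 measured was 489.8 to 496.7 in LC-HFD and 823 to 925 in LC-RD, carried by those genes. Mpo and Elane, at means under 4, had differences of 0.27 and 0.29 and did not pass. By the same sums, 2 of 3 club cell markers were lower (15670 to 16120 against 18010 to 18540) and 0 of 5 T cell markers passed (156 to 197 against 171 to 183). Of 5 macrophage markers 1, Marco, was higher with 0.77 (2379 to 2454 against 2248 to 2336). The others did not pass, with Siglecf at -0.32, Mrc1 at -0.02, Adgre1 at -0.0036 and Cd68 at 0.11. Kit was 1 lower gene of 4 mast cell markers with -0.44 (227 to 263 against 300.2 to 328), and it carried that sum. Cpa3, Mcpt4 and Tpsb2, at means under 4, had differences of 0.09, 0.21 and 0.13 and did not pass. Of the B cell markers 1 of 3 was higher, Cd79a with 0.96, and 1 was lower, Ms4a1 with -0.70 (195 to 204 against 207 to 224). Fibroblast markers had 1 higher and 2 lower of 4 (3010 to 3204 against 2930 to 2980), endothelial markers 1 higher and 1 lower of 4 (1028 to 1147 against 1069 to 1102), and of 4 alveolar type I markers 1, Aqp5, was higher (17800 to 18040 against 17480 to 17550). Hepatocyte genes, of a tissue that should be absent, were higher for 2 of 3 (126 to 136 against 85.8 to 94.0). The part of these controls and markers in the SOCS family values was not tested.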

How the data were processed

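The authors hybridized lung RNA of each of 6 mice, 3 LC-HFD and 3 LC-RD, to its own Affymetrix mouse genome array. The deposited table holds log2 values, 1 per probe set and array. GCRMA, a normalization that models background by the bases of each probe, is named by the submitters' processing notes, and Partek software by the methods, with versions not given in the sources used here. No value column was left unused (0). No further normalization was applied. With 64 control probe sets set apart, the others were tied to genes through the platform's annotation, with 34754 symbols updated through the Entrez ID. There were 34958 probe sets with 1 gene, 932 with several and 9211 with none, and only the first were named. The 4 members with a promoter window in the RefSeq table were Cish, Socs1, Socs3 and Socs4.

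LC-HFD was set against LC-RD by a two-sided limma fit (version 3.58.1, R 4.3.3, lmFit and eBayes as they come), and p-values were adjusted by Benjamini-Hochberg over 45037 probe sets. The scripts were tested on simulated data. The 3 arrays per group limit the precision. Differences are LC-HFD minus LC-RD, ± is the SD, and levels were not compared between probe sets of different genes. All member probe sets were named, and from each pathway list up to 4 passing genes with the largest differences, besides Lep, Il6st, Stat5a and Stat5b, which were added for their place in the pathway after their values were seen. Members and lists were chosen with earlier results of these data known. Alternatives were quantile normalization, median centering, the methods' t-test, a trended robust variance, array weights, minimum levels of 4 and 6, a replicate block, the 3′ minus 5′ covariate, a 2-fold minimum, the median over a gene's probe sets and leaving out each array.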

Additional observations from a re-analysis of the deposited data

How the results depend on the processing

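The number of SOCS family probe sets passing, 5, became 3 with quantile normalization, 3 with the methods' t-test, 10 with a trended robust variance, 8 with a minimum level of 4, 9 with a minimum level of 6, 1 with the 3′ minus 5′ covariate, 1 with a 2-fold minimum, and 1 to 5 leaving out each array. These moves ran beside those of the whole array, where 25.0% passed at first, 42.5% at level 4 (18 members tested), 55% at level 6 (15 tested), 30.6% with the trended variance and 12.9% to 25.6% leaving out each array. The 1 passing lead became 0 with quantile normalization, the t-test or the covariate, 4 with the trended variance, 2 at level 4, 4 at level 6, 4 with the median over probe sets, and 0 to 1 leaving out each array. The lead that passed was Socs3 at first, but Socs5, lower, without LC-HFD replicate 1 or with array weights, and Socs1, higher, without LC-HFD replicate 2 or with median centering. The 28 pathway genes became 9 with the covariate, 2 with the 2-fold minimum and 15 to 27 leaving out each array. With the replicate block the counts were 4 family probe sets and 18 pathway genes. Same-numbered arrays did not deviate together (correlations -0.0431, -0.093 and -0.0303), and pairs with unlike numbers had -0.036 to 0.0803. With 3 arrays per group these values cannot decide whether the numbers pair the mice.

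Directions turned for several differences that did not pass, and for Pias1, which had passed. Socs2 1449109_at was -0.0231 with the covariate, -0.14 with the median over probe sets and -0.0103 to 0.0215 leaving out each array. Socs2 1442586_at was -0.0642, Socs6 1452764_at 0.0579 and Socs7 1420766_at -0.0986 with the covariate. Socs6 1450129_a_at was 0.0787 with quantile normalization, 0.011 with centering, 0.103 with the covariate and -0.107 to 0.0627 leaving out each array. Socs7 1455402_at was 0.0721 with the median over probe sets, and Socs7 1434834_at was -0.0341 with array weights and -0.0662 to 0.058 leaving out each array. Socs4 1421274_at was -0.276 to 0.00905 leaving out each array. Pias1, at first 0.56, turned to -0.37 (adjusted p = 0.0168 with limma) with the median over probe sets. Over the alternative values of single differences, 531 kept direction and side of the threshold, 84 no longer passed, 21 newly passed and 22 turned. The span of the Socs2 differences was 3.52 to 3.70 leaving out each array, and 1446085_at stayed between -3.56 and -3.43 in its 14 alternatives. The causes were not tested.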

Other observations

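Probe sets with values like those of Socs2 1446085_at were searched after its values were seen, among 34939 probe sets of 1 gene. The 5 nearest over the 6 centered arrays were 1430991_at of 1810014B01Rik, with a difference of -3.58, 1434987_at of Aldh2, the mitochondrial aldehyde dehydrogenase, with -3.50, 1453596_at of Id2, an inhibitor of DNA binding, with -2.94, 1446625_at of Tmem100, a lung endothelial gene, with -3.33, and 1442700_at of Pde4b, a phosphodiesterase of cyclic AMP, with -3.12. The first 2 lay at mean distances of 0.142 and 0.145 log2 per array.

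These genes were picked for 1 low probe set, so a wide span within each follows from the choice and is given as values only. From lowest to highest, the differences ran from -3.58 to -0.17 over the 4 probe sets of 1810014B01Rik, from -3.50 to 0.15 over the 5 of Aldh2, from -2.94 to -0.42 over the 3 of Id2, from -3.33 to -0.76 over the 2 of Tmem100 and from -3.12 to 1.01 over the 6 of Pde4b. What these probe sets share in position or sequence was not tested.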
